A study of Mus musculus with 59 samples.

Results

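The interferon-stimulated genes examined here are a list of 46 mouse genes whose messages rise when a cell senses interferon. Probe sets were matched to the list by gene symbol, and each member was read from the probe set of its symbol with the highest mean signal. Of the 46, 44 were measured by a probe set annotated to exactly 1 symbol, out of 18193 genes in all, and Isg15 and Ifi44 were not analysed here. Livers of mice 4 weeks of age were compared between wild type (wt, 12 arrays), an E2f3a knock-out (3aKO, 10 arrays), an E2F1 knock-in (1KI, 10 arrays) and an E2F3b knock-in (3bKI, 5 arrays). The labels give all of them the same mixed background of FVB/NT, 129S1/Svlmj and C57BL/6NT. The sources used here do not give the locus that carries each knock-in or the promoter that drives it. E2F proteins are transcription factors best known for their control of genes of the cell cycle. Every value is a log2 signal, with 1KI read in a first normalization and 3bKI in a second one, both of which hold the same wt and 3aKO arrays. 1KI and 3bKI arrays were therefore not compared with each other. Nothing in the labels states that each array is a mouse of its own, so p-values reflect only the spread among these samples, and that spread may be technical.

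Interferons are secreted when cells detect viral or other foreign nucleic acid, and they act on neighbouring cells through surface receptors. Type I interferon makes a complex that contains STAT2 and IRF9 enter the nucleus and bind the interferon-stimulated response element (ISRE), whereas type II interferon acts mainly at the gamma-activated site (GAS). The genes switched on in this way include sensors of viral RNA, proteins that block viral translation, GTPases that attack intracellular microbes and the machinery that presents peptides to T cells. In liver, hepatocytes, Kupffer cells and other resident immune cells all can respond.

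The 250 bases before the transcription start of 5 members are shown. These genes are among the members described below, and their promoters differ in the motifs they hold. The sequences are from the RefSeq annotation of GRCm38.p6 and are written 5′ to 3′ on the + strand, which is also the strand of each gene. Capitals mark a match to the ISRE letters, which are GAAA, any 2 bases and GAAA again, or TTTC, any 2 bases and TTTC as read on the opposite strand. In Tap1 they mark the E2F letters TTTGGCGC.
Stat2, chr10:128270248-128270497: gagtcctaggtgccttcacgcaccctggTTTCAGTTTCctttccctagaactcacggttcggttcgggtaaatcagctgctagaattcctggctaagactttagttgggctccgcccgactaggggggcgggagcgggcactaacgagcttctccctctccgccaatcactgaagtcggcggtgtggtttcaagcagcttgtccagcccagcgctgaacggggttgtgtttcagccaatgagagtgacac
Ifit1, chr19:34640639-34640888: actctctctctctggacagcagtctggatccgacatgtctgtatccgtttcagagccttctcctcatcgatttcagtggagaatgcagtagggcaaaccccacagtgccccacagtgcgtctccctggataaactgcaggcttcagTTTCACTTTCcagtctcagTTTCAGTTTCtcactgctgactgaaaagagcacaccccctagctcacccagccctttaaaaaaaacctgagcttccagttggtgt
Ifit3, chr19:34583279-34583528: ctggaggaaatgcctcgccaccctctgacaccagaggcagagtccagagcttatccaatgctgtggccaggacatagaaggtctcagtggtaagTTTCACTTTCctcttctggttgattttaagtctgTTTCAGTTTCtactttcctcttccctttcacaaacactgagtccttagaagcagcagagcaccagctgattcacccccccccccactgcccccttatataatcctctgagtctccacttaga
Gbp2, chr3:142620413-142620662: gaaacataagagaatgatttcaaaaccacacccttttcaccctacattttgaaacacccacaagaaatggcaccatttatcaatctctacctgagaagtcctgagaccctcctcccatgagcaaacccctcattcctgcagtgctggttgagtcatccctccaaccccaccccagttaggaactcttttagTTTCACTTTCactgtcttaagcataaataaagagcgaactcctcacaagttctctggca
Tap1, chr17:34187306-34187555: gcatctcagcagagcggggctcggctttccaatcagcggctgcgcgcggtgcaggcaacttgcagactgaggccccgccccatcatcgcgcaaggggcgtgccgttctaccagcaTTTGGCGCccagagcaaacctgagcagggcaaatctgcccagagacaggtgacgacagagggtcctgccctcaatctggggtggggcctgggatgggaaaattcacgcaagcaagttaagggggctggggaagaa
The Ifit1 and Ifit3 stretches each hold 2 ISRE matches, those of Stat2 and Gbp2 hold 1, and that of Tap1 holds none but has 1 E2F match.

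RefSeq promoters, each running from 250 bases before to 50 bases after the start, were at hand for 32 of the 44 members. Both strands were searched. The ISRE letters lay in 16 of these 32 members (50%), against 3.99% of all 27025 genes with a promoter in the table. The GAS letters TTCNNNGAA lay in 8 of 32 members (25%), against 9.55% of all genes. The E2F letters TTTCCCGC, TTTCGCGC, TTTGCCGC or TTTGGCGC lay in 3 of 32 members (9.38%), against 2.6% of all genes. Those 3 are Ifit2, Psmb9 and Tap1, and the windows of Psmb9 and Tap1 overlap and share the same match. A match describes the letters in this window and is not a measured binding site.

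Control signals differed between the genotypes and bear on every comparison with a knock-in. Hybridization controls, added to every sample, averaged 10.24 ± 0.53 on the log2 scale over the 12 wt arrays (SD), 10.00 ± 0.12 over the 10 of 3aKO and 11.17 ± 0.25 over the 10 of 1KI, and in the second normalization 11.44 ± 0.29 over the 5 of 3bKI. Of the wt arrays, 2 (replicates 1 and 2) reached the knock-in level. Poly-A controls averaged 9.04 in wt and 9.36 in 1KI, and 13.82 in 3bKI. 1KI replicate 6 had a 3′ minus 5′ signal difference of 1.75, a sign of shortened RNA, against a mean of 0.56 in wt. E2f1 did not rise in 1KI, nor E2f3 in 3bKI, so the E2f genes gave no check of the knock-in labels. E2f3 was −0.25 ± 0.07 on the log2 scale in 3aKO against wt (SE, adjusted p = 0.13), E2f1 was −0.25 ± 0.11 in 1KI against wt (adjusted p = 0.086) and E2f3 fell by 0.24 in 3bKI against wt (adjusted p = 0.049). E2f2 rose by 0.29 in 3bKI against wt (adjusted p = 0.043). With the hybridization level as a block, E2f3 was −0.03 and E2f2 0.35 in 3bKI against wt and neither passed (adjusted p = 0.94 and 0.23). In 1KI against 3aKO, E2f1 was −0.29 ± 0.11 (SE, limma adjusted p = 0.049) and E2f3 was 0.22 ± 0.07 (SE, limma adjusted p = 0.022). With the block these were −0.31 and 0.48, and neither passed (limma adjusted p = 0.55 and 0.055). The sources used here do not say whether these probe sets lie in the altered sequence. Hepatocyte markers had nearly the same summed signal in every group, at a median of 17.27 to 17.30 on the log2 scale.

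In 3aKO against wt, 0 of the 44 members passed an adjusted p of 0.05 by limma, where 0.176% of all genes passed, 0.11% higher and 0.066% lower. Of the members, 32 had a log2 change above 0, with a median of 0.12 against −0.01 over all genes, and 14 had an unadjusted p under 0.05, 13 of them above 0 (2166 of all genes were under it). Iigp1 was 0.17 ± 0.05 (SE, adjusted p = 0.14), Ifih1 0.22 ± 0.07 (adjusted p = 0.16), Ifit3 0.29 ± 0.10 (adjusted p = 0.21) and Ifit1 0.40 ± 0.15 (adjusted p = 0.28). Without 3aKO replicates 1 and 2, which had high signals of many members, the count stayed 0 and the median was 0.04.

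In 1KI against wt, more members fell than rose. Of 44, 5 passed higher and 14 lower (11.4% and 31.8%), where 10.2% of all genes passed higher and 17.5% lower, 27.6% in either direction. The median member changed by −0.12 on the log2 scale, against −0.05 over all genes. With array medians made equal, 2 passed higher and 15 lower, with the shares of all genes in that fit not given here. In 1KI against 3aKO, 4 passed higher and 21 lower (9.09% and 47.7%), where 11.9% of all genes passed higher and 19% lower, 31% in either direction. The median there was −0.21, against −0.03 over all genes.

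In 3bKI against wt, more members rose than fell. Of 44 members, 13 passed higher and 1 lower (29.5% and 2.27%), where 13.4% of all genes passed higher and 15.9% lower, 29.2% in either direction. The median member changed by 0.17 on the log2 scale, against a median of 0 over all genes. In 3bKI against 3aKO, 11 passed higher and 4 lower (25% and 9.09%), where 16.5% of all genes passed higher and 17.7% lower, 34.2% in either direction. With array medians made equal this split became 8 higher and 7 lower, again without the shares of all genes in that fit. Comparisons with 1 control group share its arrays and are given side by side for that reason, with no test between them.

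**Figure D1:**
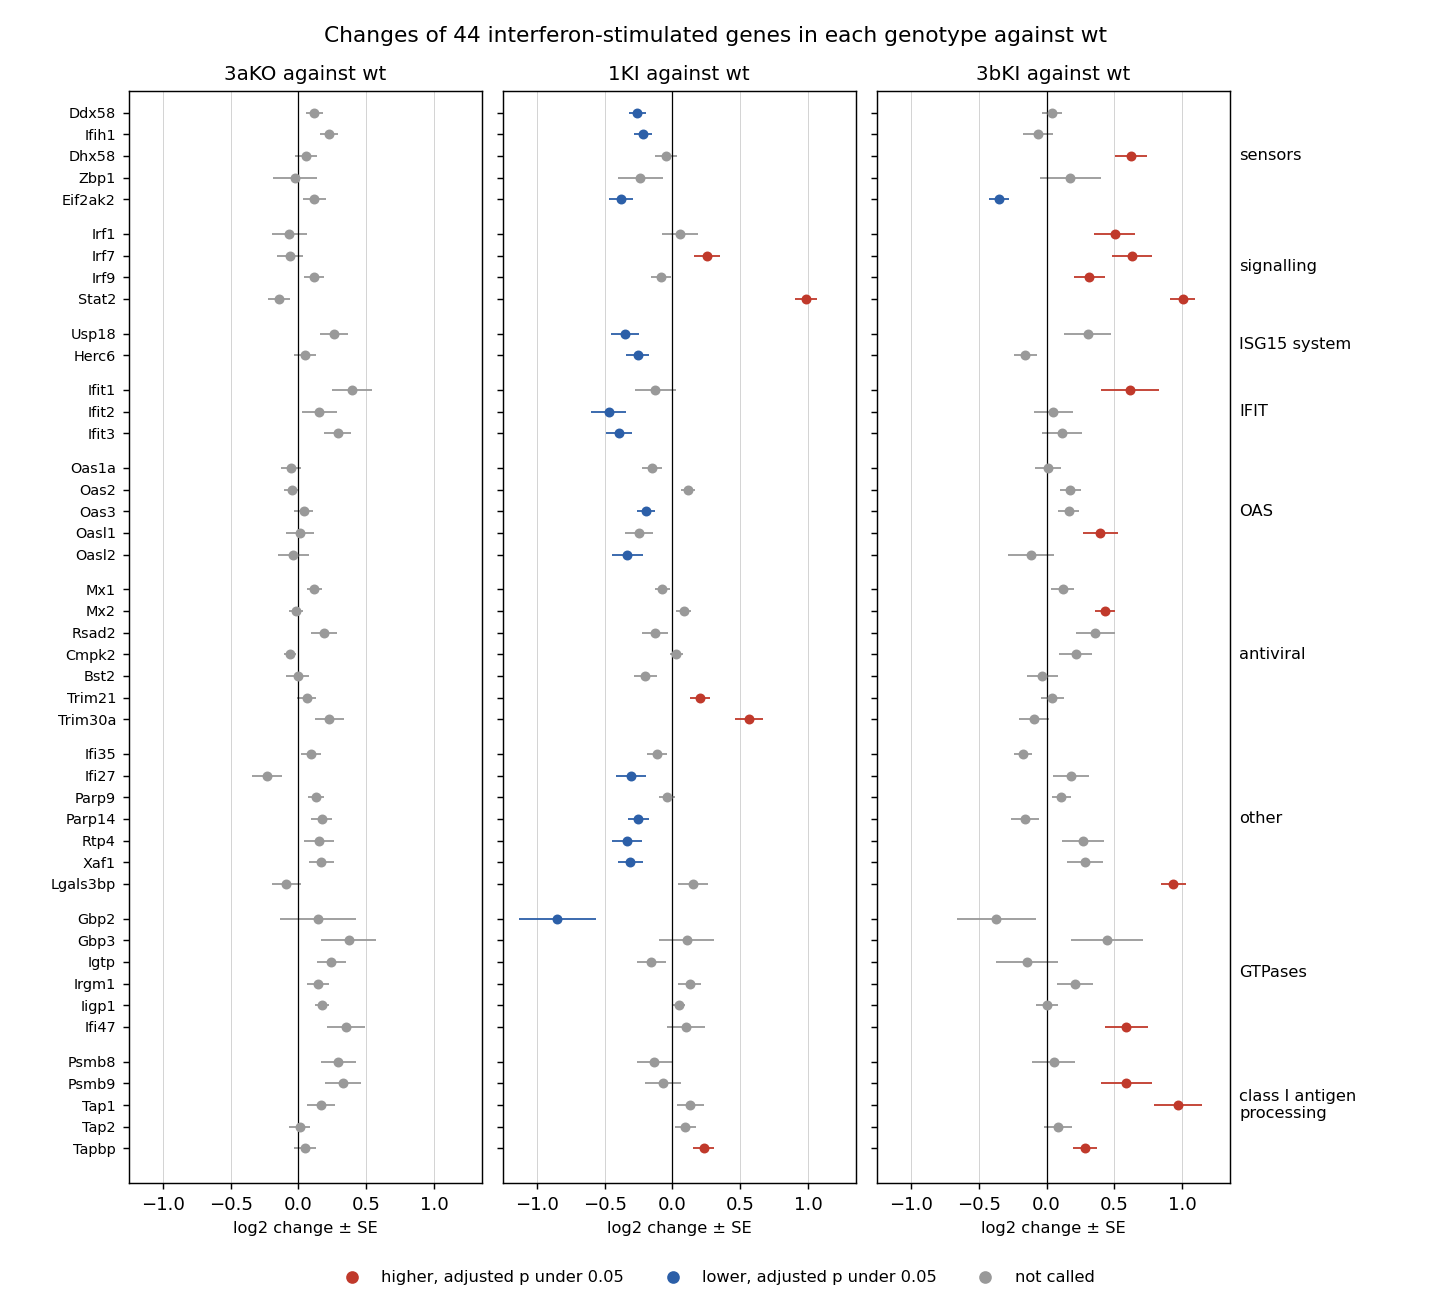
Log2 change ± SE of each of the 44 members, grouped by role, in 3aKO against wt, 1KI against wt and 3bKI against wt. Red points passed an adjusted p of 0.05 higher, blue points passed lower and grey points did not pass. No member passed in 3aKO, 14 of 19 passing members fell in 1KI and 13 of 14 rose in 3bKI, and Stat2 lies near 1 in both knock-ins.

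Most of these calls were lost in fits that allowed for the hybridization control level, in which wt replicates 1 and 2 alone link the knock-ins to the other wt arrays. When that level was added to the fit as a block, 2 of the 19 calls in 1KI against wt were kept (Stat2 and Trim30a) and 1 of the 25 in 1KI against 3aKO (Stat2). In 3bKI against wt 3 of the 14 calls were kept (Stat2, Lgals3bp and Mx2), and in 3bKI against 3aKO 2 of the 15 (Stat2 and Lgals3bp). Of the calls lost with the block, 16 of 17 and 23 of 24 in 1KI and all 11 and all 13 in 3bKI, set against wt and 3aKO, kept their direction, and the exception in 1KI was Irf7 both times. In 1KI against wt Ifit3 was −0.32 on the log2 scale with the block (adjusted p = 0.34), Ifit2 −0.45 (adjusted p = 0.30) and Usp18 −0.32 (adjusted p = 0.35). Calls over all genes in these fits dropped to 4.3%, 2.29%, 8.7% and 6.77%. With wt replicates 1 and 2 as the only controls, the same 2 members passed in 1KI, and Stat2 and Lgals3bp in 3bKI. Shares of all genes are not given here for these 2 fits. The 3′ minus 5′ difference averaged 0.31 in 3bKI. With it as a covariate Stat2 (0.71) and Lgals3bp (0.70) passed in 3bKI against wt and 0 members against 3aKO, where 0.638% of all genes passed. The highest 3bKI value of that difference (0.36) lay below the lowest of wt (0.475), so this covariate and the 3bKI genotype can hardly be told apart. Poly-A controls were 9.67 and 9.53 in wt replicates 1 and 2 but at least 13.78 in 3bKI. The block thus does not match 3bKI to any wt array in poly-A signal, and calls kept with it are not cleared of such differences.

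Stat2, a partner of IRF9 in the complex that binds the ISRE, had the largest rise of any member in each of the 4 comparisons with a knock-in. Its lowest, median and highest log2 signals were 7.27, 7.65 and 7.97 in the 12 wt arrays, 7.28, 7.49 and 7.67 in the 10 3aKO arrays and 8.33, 8.59 and 8.94 in the 10 1KI arrays. In the second normalization they were 7.16, 7.53 and 7.86 in wt, and the 5 3bKI arrays read 8.62, 8.33, 8.58, 8.49 and 8.62. Here and for the other genes, 3 signals given for a group are its lowest, median and highest, and 5 signals of 3bKI are those of its replicates 1 to 5. Every knock-in array lay above every wt and every 3aKO array, so the groups did not overlap. The log2 change was 0.98 ± 0.08 (SE, adjusted p = 2.0e-10) in 1KI against wt and 1.13 ± 0.09 (SE, adjusted p = 2.4e-11) against 3aKO. In 3bKI it was 1.00 ± 0.09 (SE, adjusted p = 4.6e-09) against wt and 1.14 ± 0.10 (SE, adjusted p = 1.0e-09) against 3aKO. Groups that did not overlap were found higher for 0.676%, 2.2%, 2.7% and 5.41% of all genes in those comparisons, and Stat2 was the 1 member with such a rise in 1KI. A second Stat2 probe set changed by 0.72 in 1KI and by 0.65 in 3bKI against wt, and passed in both. With the hybridization level as a block, the change was 0.90 in 1KI and 0.92 in 3bKI against wt. Stat2 passed in all 37 alternative fits of 1KI against wt, all 35 against 3aKO, all 32 of 3bKI against wt and 29 of 30 against 3aKO.

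Irf7, the transcription factor that amplifies interferon production, rose in both knock-ins but less evenly. The lowest, median and highest log2 signals were 7.17, 7.74 and 8.18 in wt, 7.54, 7.63 and 8.09 in 3aKO and 7.70, 7.98 and 8.28 in 1KI. The 5 3bKI arrays read 8.98, 8.05, 7.93, 8.21 and 8.33, against 7.11, 7.68 and 8.09 in wt of that normalization. The 1KI values lie inside the range of wt apart from 1 array, while in 3bKI replicate 1 stood well above the rest. The log2 change was 0.25 ± 0.10 (SE, adjusted p = 0.049) in 1KI against wt and 0.31 ± 0.10 (SE, adjusted p = 0.017) against 3aKO, and 0.63 ± 0.15 (SE, adjusted p = 0.0013) in 3bKI against wt and 0.68 ± 0.15 (SE, adjusted p = 6.4e-04) against 3aKO. In 1KI against wt the call passed in 7 of 22 fits that left out 1 array, over log2 changes of 0.20 to 0.29, and it turned to −0.16 with the hybridization level as a block.

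**Figure D2:**
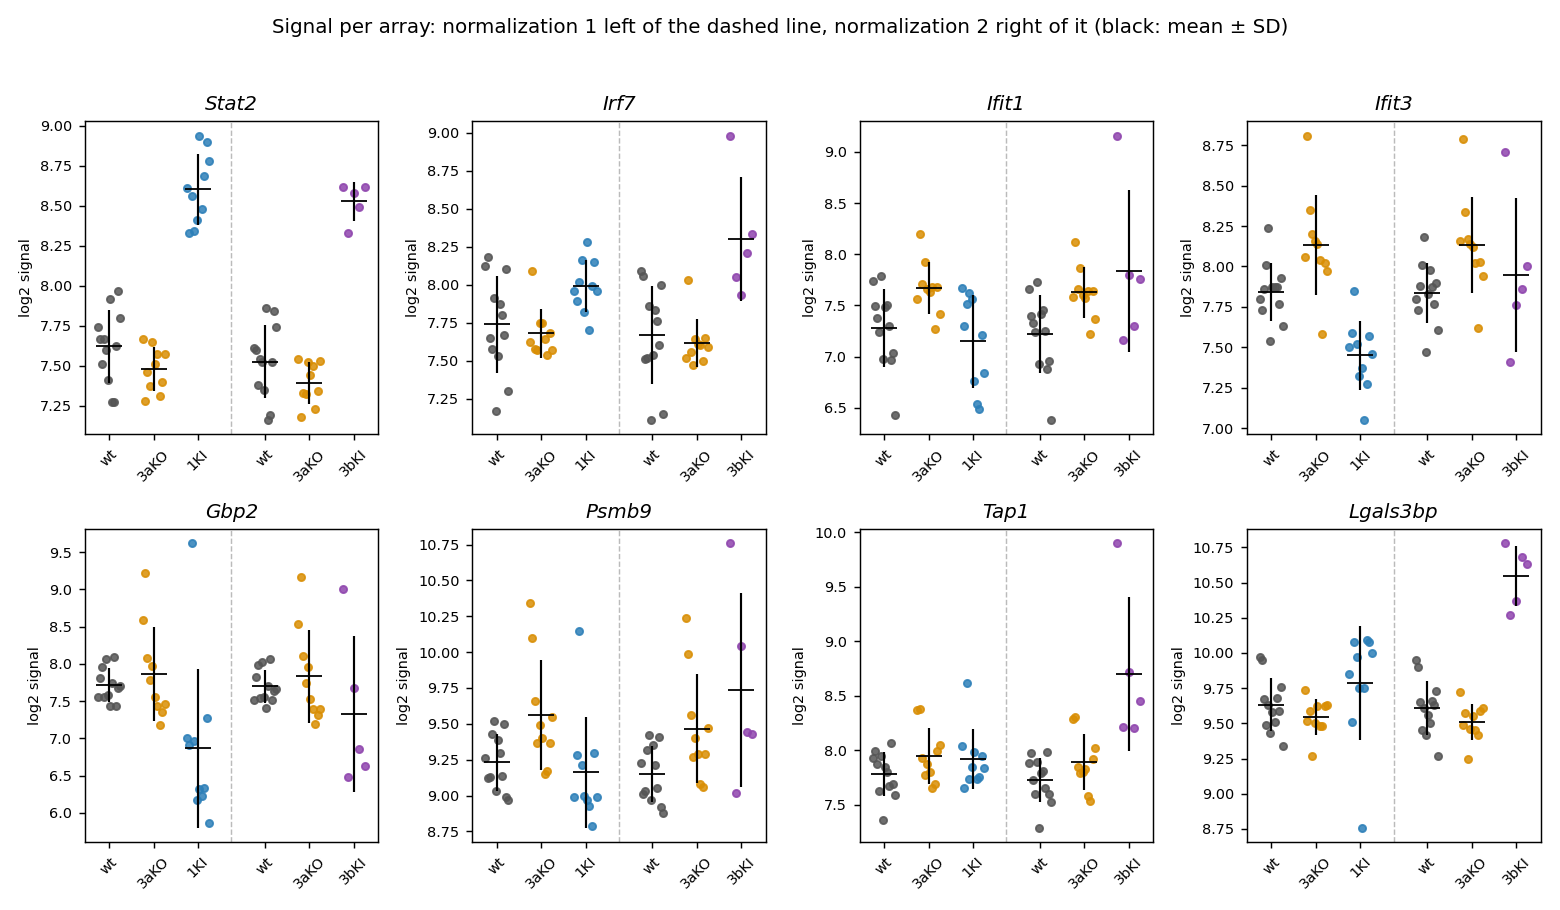
Log2 signal of Stat2, Irf7, Ifit1, Ifit3, Gbp2, Psmb9, Tap1 and Lgals3bp in every array, with the mean ± SD of each group. Arrays of the first normalization stand left of the dashed line and those of the second right of it. All knock-in arrays lie above wt for Stat2, all 1KI arrays but 1 lie below wt for Gbp2, and in 3bKI 1 array often stands above the other 4.

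The other members of this group are IRF1, an early interferon-induced transcription factor, and IRF9, the DNA-binding part of the complex at the ISRE. Irf1 had lowest, median and highest log2 signals of 8.83, 9.30 and 9.55 in wt and 8.74, 9.29 and 9.60 in 3aKO, and 10.46, 9.42, 10.07, 9.54 and 9.40 in the 5 3bKI arrays. Replicates 1 and 3 of 3bKI stood above all wt arrays and the other 3 within their range. Its log2 change was 0.50 ± 0.15 (SE, adjusted p = 0.012) in 3bKI against wt and 0.55 ± 0.16 (SE, adjusted p = 0.0061) against 3aKO. Without 3bKI replicate 1 the change against wt was 0.33, and without replicate 3 it was 0.43, and neither passed. Irf9 changed by 0.31 ± 0.11 (SE, adjusted p = 0.038) in 3bKI against wt, with 3bKI replicate 1 at 8.62 and the others between 7.65 and 7.86. That call was lost without any 1 of 3bKI replicates 1 and 5 and wt replicates 3, 4 and 6, with 0.14 on the log2 scale without replicate 1. In 1KI against 3aKO Irf9 was −0.20 ± 0.08 (SE, adjusted p = 0.041) and passed in 9 of 20 fits that left out 1 array. All 4 genes of this group thus passed higher in 3bKI against wt, 3 of 4 in 3bKI against 3aKO, and 2 of 4 in each comparison of 1KI, with Irf9 lower in 1KI against 3aKO. Of all genes, 13.4% and 16.5% passed higher in the comparisons of 3bKI with wt and 3aKO, and 10.2% and 11.9% in those of 1KI. The group has only 4 genes. The calls of Irf1 and Irf9 in 3bKI and of Irf7 in 1KI against wt were lost in some fits without 1 array.

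Among the sensors, the RNA helicases Ddx58 (RIG-I) and Ifih1 (MDA5) and the kinase Eif2ak2 (PKR), which halts translation on double-stranded RNA, were lower in 1KI. Eif2ak2 had lowest, median and highest log2 signals of 7.26, 7.42 and 7.62 in wt, 7.28, 7.54 and 7.77 in 3aKO and 6.24, 7.14 and 7.41 in 1KI. All 10 1KI arrays lay below the wt mean, though the ranges overlapped. The log2 change of the gene was −0.38 ± 0.09 (SE, adjusted p = 0.0014) in 1KI against wt and −0.50 ± 0.09 (SE, adjusted p = 8.3e-05) against 3aKO. Eif2ak2 was also the 1 member that passed lower in 3bKI against wt, at −0.35 ± 0.07 (SE, adjusted p = 3.9e-04), with the 5 3bKI arrays at 7.26, 7.17, 6.89, 6.89 and 7.03 against 7.20, 7.41 and 7.61 in wt. Other Eif2ak2 probe sets did not move alike in 3bKI, at 0.21, which passed, and at 0.00. Ifih1 fell by 0.22 and Ddx58 by 0.26 in 1KI against wt (adjusted p = 0.016 and 0.0016), and by 0.44 and 0.38 against 3aKO.

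Dhx58 (LGP2), a helicase that tunes both of the others, rose in 3bKI. Its lowest, median and highest log2 signals were 6.31, 6.83 and 7.04 in wt and 6.67, 6.84 and 6.97 in 3aKO, and 8.01, 7.00, 7.26, 7.23 and 7.35 in the 5 3bKI arrays. Every 3bKI array lay above every 3aKO array, and all but 1 above every wt array. The log2 change was 0.62 ± 0.12 (SE, adjusted p = 1.5e-04) against wt and 0.54 ± 0.12 (SE, adjusted p = 9.0e-04) against 3aKO, and in 1KI it was −0.05 ± 0.08 against wt (SE, adjusted p = 0.701). Zbp1, a sensor of left-handed nucleic acid, passed in no comparison. Its largest log2 change in size was −0.24 in 1KI against wt, and the highest arrays of the groups were 3aKO replicate 1 at 8.54, 1KI replicate 3 at 8.67 and 3bKI replicate 1 at 8.73.

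The ISG15 group had 2 measured members, both lower in 1KI. Over all genes, 17.5% passed lower in 1KI against wt and 19% against 3aKO. Usp18 removes the ubiquitin-like protein ISG15 from its targets and also damps the interferon receptor. The lowest, median and highest log2 signals were 7.64, 8.09 and 8.48 in wt, 8.01, 8.35 and 8.75 in 3aKO and 7.33, 7.66 and 8.08 in 1KI. In the second normalization wt read 7.57, 8.05 and 8.41, and the 5 3bKI arrays 9.35, 7.76, 8.41, 8.11 and 7.92. Of the 1KI arrays, 9 lay below the wt mean, with overlap, and 3bKI replicate 1 stood above all others. On the log2 scale it changed by −0.35 ± 0.10 (SE, adjusted p = 0.0098) in 1KI against wt and −0.61 ± 0.11 (SE, adjusted p = 3.7e-05) against 3aKO. In 3bKI against wt it was 0.30 ± 0.17 (SE, adjusted p = 0.21). Herc6, the main ligase that attaches ISG15 in mouse, fell by 0.26 in 1KI against wt (adjusted p = 0.0201) and by 0.31 against 3aKO (adjusted p = 0.0069).

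The IFIT proteins bind viral RNA and block its translation, and their genes lie close together on chromosome 19, with no other coding gene between Ifit2 and Ifit3. Ifit3 had lowest, median and highest log2 signals of 7.54, 7.87 and 8.24 in wt, 7.58, 8.10 and 8.81 in 3aKO and 7.05, 7.48 and 7.85 in 1KI. The ranges overlapped, with 9 of 10 1KI arrays below the wt mean and all 10 below the 3aKO mean. The change on the log2 scale was −0.39 ± 0.10 (SE, adjusted p = 0.0026) in 1KI against wt and −0.68 ± 0.10 (SE, adjusted p = 4.0e-06) against 3aKO. Ifit2 read 5.14, 5.58 and 6.03 in wt, 5.26, 5.70 and 6.33 in 3aKO and 4.52, 5.02 and 5.71 in 1KI. The lowest Ifit2 values were all from 1KI. This was a log2 change of −0.47 ± 0.13 (SE, adjusted p = 0.00602) against wt and −0.63 ± 0.13 (SE, adjusted p = 5.0e-04) against 3aKO.

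Ifit1, whose protein holds viral RNA that lacks a methylated cap, showed the widest spread of the 3 IFIT genes in 3bKI. Its lowest, median and highest log2 signals were 6.43, 7.34 and 7.79 in wt, 7.27, 7.67 and 8.20 in 3aKO and 6.49, 7.26 and 7.67 in 1KI. In the second normalization wt read 6.38, 7.29 and 7.73, and the 5 3bKI arrays 9.16, 7.16, 7.80, 7.30 and 7.76. There replicate 1 of 3bKI stood above every other array and replicate 2 lay below the wt median. In 1KI the log2 change was −0.13 ± 0.15 against wt (SE, adjusted p = 0.56), which did not pass, and −0.52 ± 0.16 (SE, adjusted p = 0.0104) against 3aKO. The 3bKI change against wt was 0.62 ± 0.22 (SE, adjusted p = 0.031). Without 3bKI replicate 1 that change was 0.28 (limma adjusted p = 0.25), and without replicate 3 it was 0.62 with an adjusted p of 0.051. Ifit2 and Ifit3 did not pass in 3bKI against wt, at 0.05 ± 0.15 and 0.11 ± 0.15 on the log2 scale.

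OAS proteins make or relate to the short adenylate chains that activate RNase L. Oasl2 fell in 1KI against wt, with lowest, median and highest log2 signals of 5.43, 5.73 and 6.32 in wt and 4.95, 5.56 and 5.85 in 1KI. The groups overlapped over most of their range. Its log2 change was −0.33 ± 0.11 (SE, adjusted p = 0.027), and the call passed in 17 of 22 fits that left out 1 array, failing without 1KI replicates 5, 8 or 10 or wt replicates 9 or 11. Oas3 fell by 0.19 in 1KI against wt (adjusted p = 0.031), a call lost without 1KI replicate 6 or wt replicates 9 or 11 (fell by 0.15 at the least), and by 0.23 against 3aKO (adjusted p = 0.012). Oas2 read 6.90, 7.22 and 7.34 in 3aKO and 7.25, 7.33 and 7.60 in 1KI. All 10 1KI arrays lay above the 3aKO mean, and the change was 0.16 ± 0.06 (SE, adjusted p = 0.027), which was lost without 1KI replicate 6 or 3aKO replicate 1. It was 0.22 in 3bKI against 3aKO (adjusted p = 0.031) and passed in 11 of 15 such fits.

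Oasl1, which restrains the translation of Irf7 in mouse, rose in 3bKI by 0.40 ± 0.13 (SE, adjusted p = 0.02) against wt and by 0.39 ± 0.13 (SE, adjusted p = 0.022) against 3aKO. Of the 5 3bKI arrays, 4 lay above the wt mean and replicate 3 below it, at 6.41. Both calls were lost without any 1 of 3bKI replicates 1, 4 and 5, where the change against wt was between 0.26 and 0.34. Oas1a passed in no comparison, with log2 changes from −0.15 in 1KI against wt to 0.06 in 3bKI against 3aKO.

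Among the other antiviral effectors, Trim30a, a mouse TRIM protein that damps inflammatory signalling, rose in 1KI. The lowest, median and highest log2 signals were 6.83, 7.24 and 7.42 in wt, 7.19, 7.37 and 8.00 in 3aKO and 7.37, 7.67 and 8.47 in 1KI. All 10 1KI arrays lay above the wt mean, and 9 of 10 above the highest wt array. The log2 change of the gene was 0.56 ± 0.10 (SE, adjusted p = 1.2e-04) against wt and 0.33 ± 0.11 (SE, adjusted p = 0.019) against 3aKO, and 0.83 against wt with the hybridization level as a block. A second probe set of the gene changed by 0.07 and did not pass. In 3bKI against 3aKO it was lower, at −0.31 ± 0.11 (SE, adjusted p = 0.035), in 9 of 15 fits that left out 1 array. Its 5 3bKI arrays read 7.15, 7.01, 6.52, 7.25 and 6.92, against 7.05, 7.22 and 7.86 in 3aKO of that normalization.

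Trim21, an antibody receptor inside cells that tags bound virus for breakdown, read 7.69, 7.92 and 8.06 in wt and 7.85, 8.06 and 8.56 in 1KI on the log2 scale. It was above the wt mean in 7 of 10 1KI arrays, with a change of 0.20 ± 0.07 (SE, adjusted p = 0.0298). That call was lost without 1KI replicates 1, 3 or 5 or wt replicate 11 (0.15 at the least), and a second probe set of the gene fell by 0.44 and passed. Mx2, an antiviral GTPase, read 6.83, 7.10 and 7.19 in wt, 6.92, 7.01 and 7.21 in 3aKO and 7.76, 7.17, 7.43, 7.61 and 7.45 in 3bKI. All 3bKI arrays but replicate 2 lay above both control groups. On the log2 scale it changed by 0.43 ± 0.07 (SE, adjusted p = 5.2e-05) against wt and 0.43 ± 0.08 (SE, adjusted p = 5.3e-05) against 3aKO, and 0.41 against wt with the hybridization level as a block. Mx1, often defective in inbred mice, fell by 0.19 in 1KI against 3aKO (adjusted p = 0.011), as did Rsad2 (viperin), which makes a chain-ending nucleotide, by 0.32 (adjusted p = 0.018). The Mx1 signal was the lowest of the members, at a mean of 4.34 in the first normalization, above only 13.3% of all genes. Bst2 (tetherin) and Cmpk2, the neighbour of Rsad2, passed in no comparison.

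Lgals3bp, a secreted glycoprotein that binds galectin-3, rose in 3bKI with no overlap. Its lowest, median and highest log2 signals were 9.27, 9.62 and 9.95 in wt and 9.25, 9.52 and 9.72 in 3aKO, and 10.78, 10.27, 10.37, 10.68 and 10.63 in the 5 3bKI arrays. The lowest 3bKI array stood above the highest array of both other groups. The log2 change was 0.94 ± 0.09 (SE, adjusted p = 1.1e-08) against wt and 1.04 ± 0.09 (SE, adjusted p = 2.3e-09) against 3aKO, and 0.62 and 0.66 with the hybridization level as a block. It passed in all 32 alternative fits against wt and in 29 of 30 against 3aKO. In 1KI against wt the change was 0.15 ± 0.11 (SE, adjusted p = 0.31), with 1KI replicate 6 lowest at 8.76.

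Other interferon-induced genes were lower in 1KI. Rtp4, a chaperone of some cell surface receptors, read 8.45, 8.91 and 9.12 in wt, 8.64, 9.01 and 9.70 in 3aKO and 8.05, 8.59 and 9.04 in 1KI on the log2 scale. Its change was −0.34 ± 0.11 (SE, adjusted p = 0.021) against wt and −0.49 ± 0.12 (SE, adjusted p = 0.0014) against 3aKO. Xaf1, which opposes the inhibitor of apoptosis XIAP, read 7.82, 8.30 and 8.50 in wt, 8.00, 8.42 and 8.91 in 3aKO and 7.65, 7.92 and 8.32 in 1KI. Both genes overlapped wt over part of the range, with their lowest arrays in 1KI. The Xaf1 change was −0.31 ± 0.09 (SE, adjusted p = 0.0097) against wt and −0.48 ± 0.09 (SE, adjusted p = 1.8e-04) against 3aKO, while a second probe set changed by 0.11. Ifi27, a small mitochondrial protein, read 9.49, 10.05 and 10.44 in wt and 9.04, 9.80 and 10.00 in 1KI. All 10 1KI arrays lay below the wt mean, at a change of −0.31 ± 0.11 (SE, adjusted p = 0.034) that passed in 14 of 22 fits that left out 1 array.

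In 3bKI against 3aKO, Ifi27 rose by 0.44 ± 0.14 (SE, adjusted p = 0.014), with the 5 3bKI arrays at 10.40, 9.91, 10.20, 9.93 and 10.37 and 3aKO at 9.41, 9.72 and 10.18. The change against wt was smaller and did not pass, at 0.18 ± 0.13 (SE, adjusted p = 0.34). The call was lost without 3bKI replicate 1 (0.38). Parp14, an ADP-ribosyltransferase, and its partner Parp9, with 1 coding gene between them on chromosome 16, were both lower in 1KI against 3aKO, by 0.42 and 0.17 (adjusted p = 9.3e-05 and 0.034), and the Parp9 call passed in 12 of 20 fits that left out 1 array. Parp14 read 8.42, 8.59 and 9.04 in 3aKO and 8.85, 8.21, 8.21, 8.05 and 8.19 in 3bKI, at a change of −0.32 ± 0.11 (SE, adjusted p = 0.019). In the 3bKI group replicate 1 was the 1 high array, and the call was lost without any 1 of the other 4. Ifi35, a partner of other interferon-induced proteins, read 10.74, 10.90 and 10.97 in 3aKO and 10.86, 10.36, 10.70, 10.55 and 10.54 in 3bKI. The 3bKI arrays other than replicate 1 lay below the 3aKO range, and the change was −0.26 ± 0.07 (SE, adjusted p = 0.0039), while without probe sets that may detect several genes it was 0.12.

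Interferon-inducible GTPases coat the vacuoles of intracellular microbes. Of the 6 members, 1 passed lower in 1KI against wt, where 17.5% of all genes passed lower. Gbp2 read 7.44, 7.69 and 8.09 in wt, 7.18, 7.67 and 9.22 in 3aKO and 5.86, 6.63 and 9.62 in 1KI on the log2 scale. The other 9 1KI arrays lay below every wt array, at 5.86 to 7.27, whereas 1KI replicate 3 at 9.62 was the highest of all. The change on the log2 scale was −0.85 ± 0.28 (SE, adjusted p = 0.023) against wt and −0.99 ± 0.29 (SE, adjusted p = 0.0096) against 3aKO. It was −0.73 and did not pass without 1KI replicate 10, and it was −1.12 without 1KI replicates 3 and 6 together. A second probe set fell by 0.95 in 1KI against wt. In 3bKI it did not pass against wt, with the 5 arrays at 9.01, 6.48, 7.68, 6.86 and 6.63, but passed lower at −1.04 without 3bKI replicates 1 and 3. Igtp fell in 1KI against 3aKO, by 0.40 (adjusted p = 0.0063).

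Ifi47 was the GTPase that rose in 3bKI against wt. It read 9.08, 9.69 and 9.99 in wt, 9.61, 9.96 and 10.51 in 3aKO and 11.01, 9.98, 10.24, 9.88 and 10.08 in 3bKI on the log2 scale. All 5 3bKI arrays lay above the wt mean, and 4 of them lay within the 3aKO range, with replicate 1 above it. The change was 0.59 ± 0.16 (SE, adjusted p = 0.0051) against wt and 0.23 ± 0.16 against 3aKO (adjusted p = 0.28). Gbp3, the neighbour of Gbp2 but for 1 coding gene, passed in no comparison, and neither did Irgm1 or Iigp1. The 5 Gbp3 values in 3bKI were 9.22, 7.13, 8.04, 7.11 and 7.04, so that the 2 highest of them were replicates 1 and 3, as for Gbp2.

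The antigen processing genes Psmb9, Tap1, Psmb8 and Tap2 lie next to each other on chromosome 17. Tap1, which with Tap2 carries peptides into the endoplasmic reticulum, read 7.29, 7.76 and 7.98 in wt, 7.53, 7.84 and 8.30 in 3aKO and 9.90, 8.21, 8.72, 8.20 and 8.45 in 3bKI on the log2 scale. Every 3bKI array lay above every wt array, and 3 of 5 above every 3aKO array. This was a log2 change of 0.97 ± 0.18 (SE, adjusted p = 9.0e-05) against wt and 0.81 ± 0.18 (SE, adjusted p = 8.4e-04) against 3aKO, and 0.56 against wt without 3bKI replicates 1 and 3. Other Tap1 probe sets changed by 0.30, which passed, by −0.05 and by −0.08 in 3bKI against wt. Psmb9, an inducible subunit of the immunoproteasome, read 8.88, 9.13 and 9.42 in wt and 10.76, 9.02, 10.04, 9.44 and 9.43 in 3bKI. Replicates 1 and 3 lay far above wt, replicates 4 and 5 just above its highest array and replicate 2 below its median. Its change was 0.59 ± 0.19 (SE, adjusted p = 0.019), and it did not pass without replicate 1 (0.33) or without replicate 3 (0.51).

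Tapbp (tapasin), which loads peptides onto class I molecules, read 10.09, 10.40 and 10.54 in wt and 10.30, 10.51 and 11.21 in 1KI. In the second normalization wt read 10.03, 10.35 and 10.52, and the 5 3bKI arrays 10.96, 10.35, 10.78, 10.51 and 10.40. Tapbp was above the wt mean in 8 of 10 1KI arrays and in all 5 3bKI arrays, with overlap in both. The log2 change was 0.23 ± 0.08 (SE, adjusted p = 0.026) in 1KI and 0.29 ± 0.09 (SE, adjusted p = 0.013) in 3bKI against wt. The first did not pass without 1KI replicate 3 (0.16) and the second without 3bKI replicate 1 (0.20) or 3 (0.24), and in 3bKI against 3aKO (0.23) the call passed in 5 of 15 such fits. A second Tapbp probe set changed by 0.00 in 1KI and by 0.50 in 3bKI against wt. Psmb8 and Psmb9 fell in 1KI against 3aKO, by 0.43 and 0.40 (adjusted p = 0.013 and 0.025), and the Psmb9 call was lost without 1KI replicate 8 or 3aKO replicates 1 or 2. Tap2 passed in no comparison. Of the 5 genes of this group, 3 rose in 3bKI against wt and 1 in 1KI against wt. Over all genes, 13.4% and 10.2% passed higher in those comparisons, and the group has only 5 genes.

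**Figure D3:**
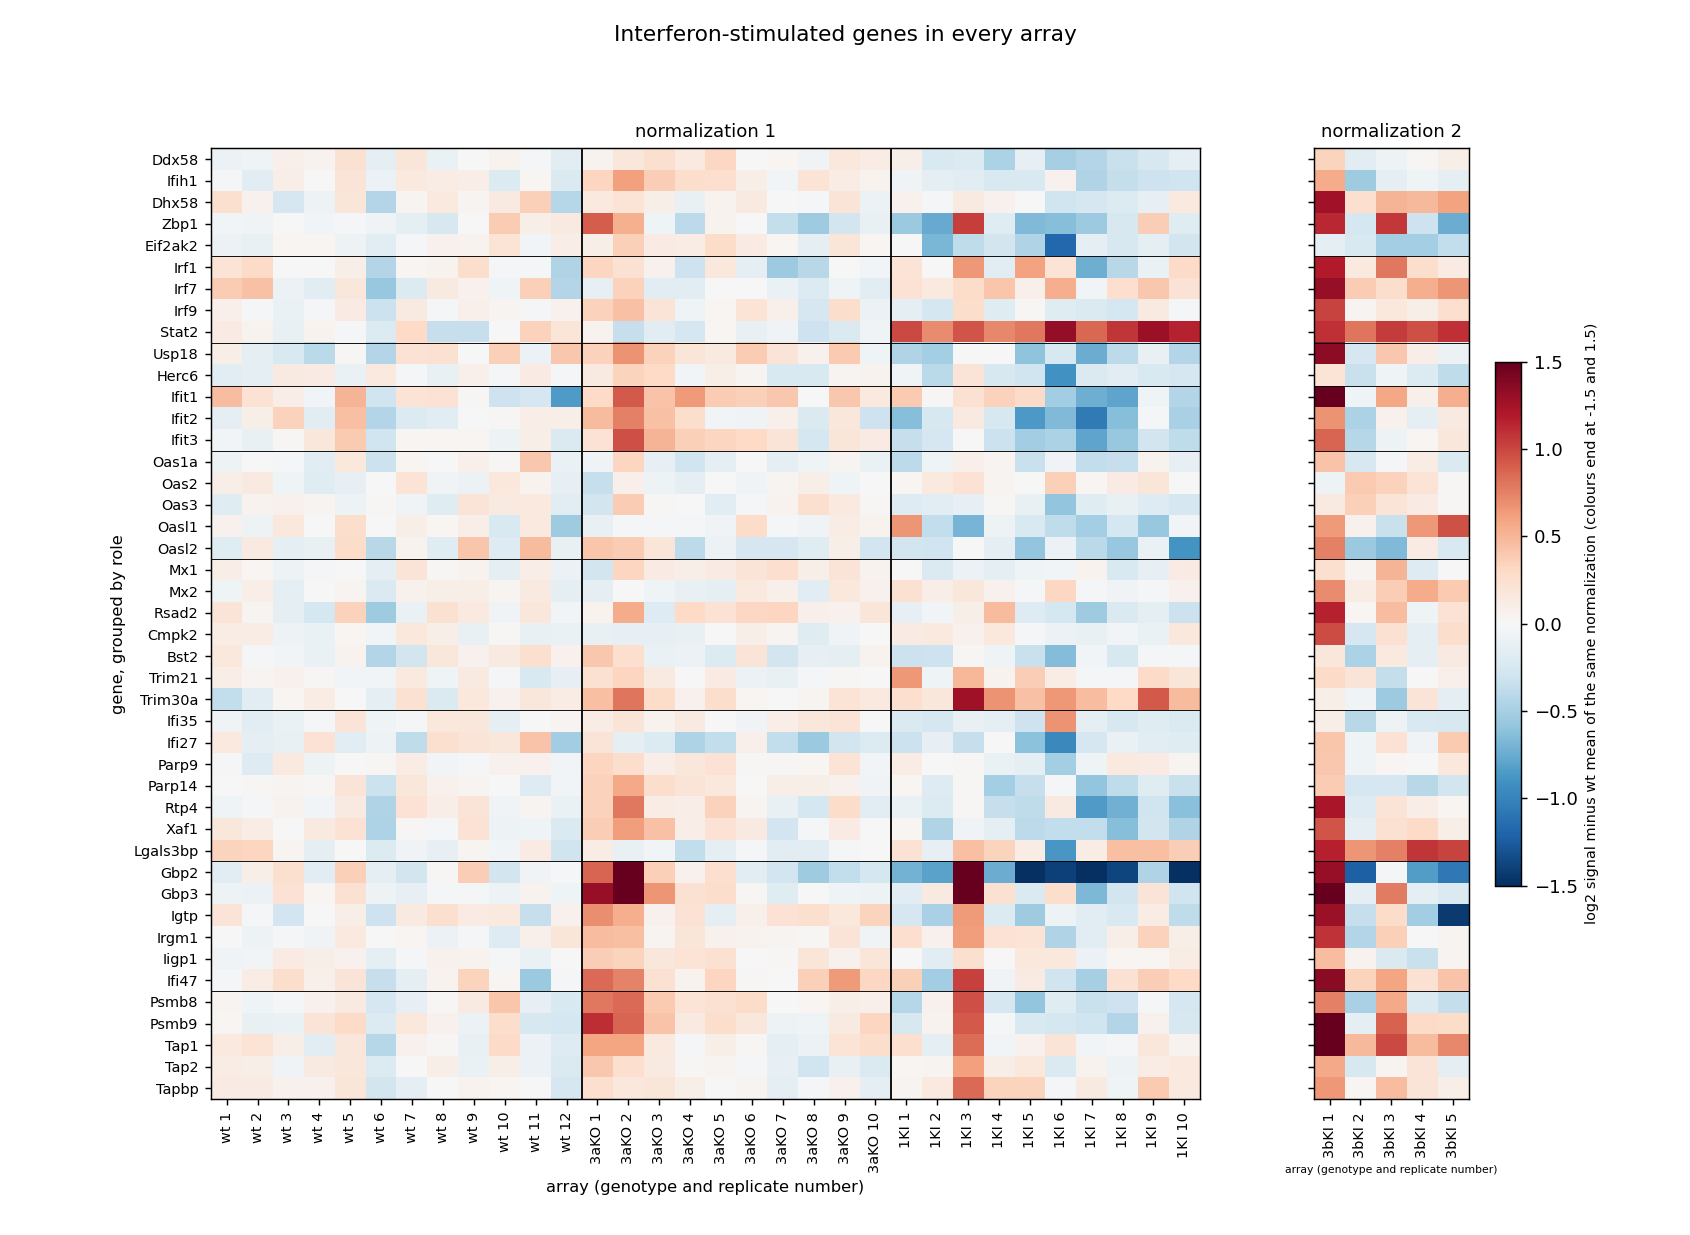
Log2 signal of each member in each array, minus the mean of the wt arrays of the same normalization, with members grouped by role. Colours run from blue (lower) over white to red (higher) and stay at the end colour beyond the ends of the scale. 3bKI replicate 1 is red over most rows, 1KI replicate 3 is red in the GTPase and antigen processing rows, and Stat2 is red across both knock-ins.

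Single arrays stood apart within the groups. In 3bKI replicate 1, 42 of 44 members lay above the wt mean, by 0.82 on average on the log2 scale, while the other 4 3bKI arrays averaged between −0.09 and 0.23. That array averaged 1.16 above wt for the IFIT genes, 1.25 for the GTPases and 1.15 for antigen processing. In 1KI replicate 3, the GTPases averaged 1.05 and antigen processing 0.84 above wt, while the IFIT genes averaged 0.12. 1KI replicate 7 was the lowest array of its group, at −0.29 over all members and −0.86 for the IFIT genes. 3aKO replicates 1 and 2 averaged 0.76 and 0.85 above wt for the GTPases. The labels give no sex, but the signal of Xist, an RNA that female mammals make from the silenced X chromosome, fell into 2 separate ranges. It was 12.42 to 13.13 in 5 wt arrays and 6.60 to 7.13 in the other 7, which include replicates 1 and 2, and it was high in replicates 1 to 5 and low in replicates 6 to 10 of both 3aKO and 1KI. Each array named above as high for the members or the GTPases had a high Xist signal, at 12.93 in 3bKI replicate 1, 13.15 in 1KI replicate 3, and 12.90 and 12.52 in 3aKO replicates 1 and 2. With an index of Xist minus Y-linked signal as a covariate, 5 members passed higher and 14 lower in 1KI against wt, 4 and 22 in 1KI against 3aKO, 13 and 2 in 3bKI against wt and 11 and 6 in 3bKI against 3aKO. The shares of all genes in these fits are not given here, and the part of that index in these single arrays was not tested. The IFIT average ran from −0.86 to 0.12 over the 1KI arrays, from −0.35 to 0.45 in wt and from −0.16 to 0.88 in 3aKO.

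Markers of some immune cells moved with some of these arrays, and those of others did not. In bulk liver, fewer cells of a type and less RNA per cell cannot be told apart. Macrophage and Kupffer cell markers (14 of 14 measured) averaged 0.92 above wt in 1KI replicate 3, 0.50 and 0.78 in 3aKO replicates 1 and 2, and 0.41 and 0.38 in 3bKI replicates 1 and 3. In the same arrays and order, lymphocyte and NK cell markers (12 of 16 measured) averaged 0.02, 0.08, 0.24, 0.04 and 0.30. Dendritic cell markers (6 of 7) averaged 0.01, −0.16, −0.04, 0.06 and 0.08, and neutrophil markers (6 of 8) 0.89, 0.09, 0.41, 0.33 and 0.47. The summed signal of the 14 macrophage markers ran from 13.23 to 13.69 on the log2 scale in wt, from 13.31 to 14.22 in 3aKO and from 12.96 to 14.30 in 1KI. In the second normalization it ran from 13.20 to 13.65 in wt, from 13.27 to 14.19 in 3aKO and from 13.18 to 13.97 in 3bKI. Of these 14 markers, 3 passed higher and 1 lower in 3bKI against wt, where 13.4% and 15.9% of all genes did. Their log2 changes ran from −1.06 to 0.54. MHC class II genes (5 of 5 measured) are expressed by antigen-presenting cells and induced by type II interferon. Their summed signal ran from 10.60 to 11.31 in wt, from 10.61 to 12.56 in 3aKO and from 9.57 to 12.21 in 1KI. In the second normalization it ran from 10.51 to 11.25 in wt, from 10.53 to 12.48 in 3aKO and from 11.68 to 12.40 in 3bKI. All 3bKI arrays thus lay above all wt arrays of that normalization in this sum. Of the 5 genes, 4 passed higher in 3bKI against wt, where 13.4% of all genes did. Cd74, the invariant chain, was at 1.47 ± 0.22 (SE, limma adjusted p = 7.2e-06). An array signal has no true zero, so no marker could be called absent. The part of these cells in the changes of the members was not tested.

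Without the arrays that stood apart, the counts in 3bKI changed more than those in 1KI. Without 1KI replicates 3 and 6, 4 members passed higher and 14 lower against wt, where 9.88% and 15.3% of all genes passed, and 3 higher and 23 lower against 3aKO, where 12.2% and 18.3% did. Without 3bKI replicates 1 and 3, 7 passed higher and 6 lower against wt, where 10.3% and 13.1% of all genes passed. Of the 14 earlier calls 8 were among these, and the median member fell to −0.02 from 0.17. The 7 higher were Stat2, Lgals3bp, Tap1, Oasl1, Irf7, Dhx58 and Mx2, and the 6 lower were Gbp2, Igtp, Eif2ak2, Parp14, Herc6 and Ifi35. Against 3aKO, the split without those 2 arrays was 8 higher and 10 lower, where 13.3% and 15.6% of all genes passed. 3bKI replicates 1 and 3 were also the 2 3bKI arrays with a high Xist signal (12.93 and 12.86). Replicates 2, 4 and 5, at 6.72 to 7.44, were therefore set against wt arrays of which 5 of 12 had a high one, and leaving out 2 arrays and leaving out those of high Xist cannot be told apart here. Without 3aKO replicates 1 and 2, 3 members passed higher and 15 lower in 1KI against 3aKO, where 10.6% and 16.3% of all genes passed.

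**Figure D4:**
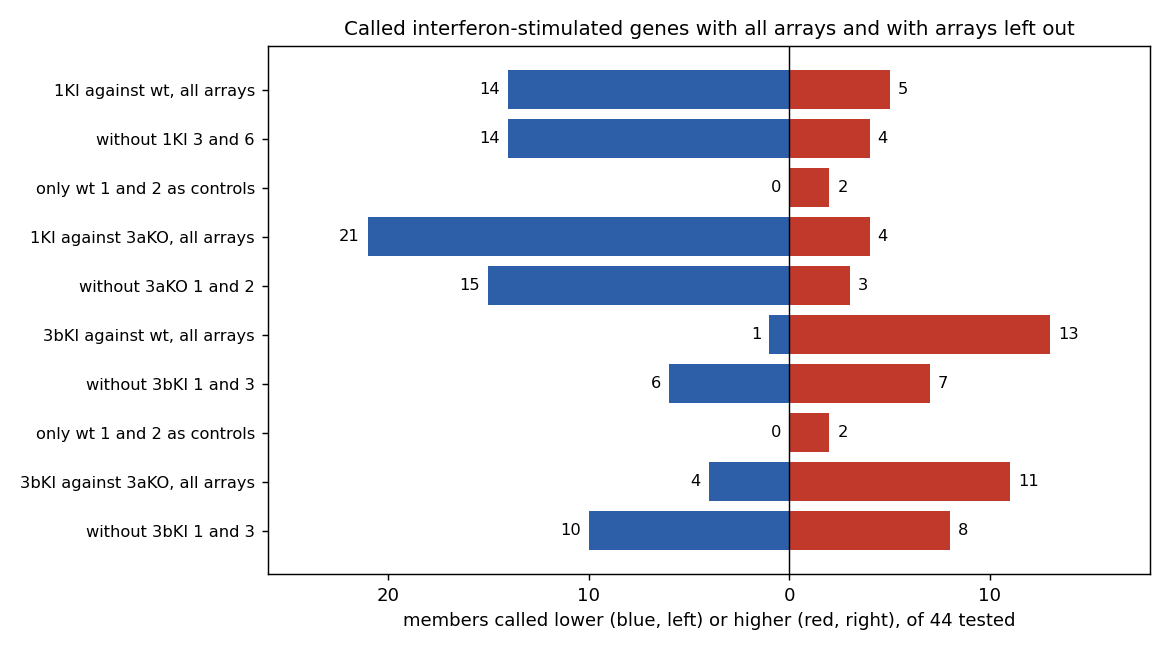
Number of the 44 members that passed an adjusted p of 0.05 higher and lower in each comparison. Counts are given with all arrays and with the choices of arrays named on the axis. The 13 higher and 1 lower of 3bKI against wt become 7 and 6 without 3bKI replicates 1 and 3. The 5 higher and 14 lower of 1KI against wt become 4 and 14 without 1KI replicates 3 and 6. Most calls of both knock-ins against wt are lost where the only controls are the wt arrays that reached the knock-in hybridization control level.

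Genes elsewhere in the pathway were taken from 7 lists of 93 genes, of which 77 were measured. In 1KI against wt 8 of 77 passed higher and 17 lower (10.4% and 22.1%, against 10.2% and 17.5% of all genes), which is near the background. In 1KI against 3aKO 6 and 25 did (7.79% and 32.5%, against 11.9% and 19%). For 3bKI against wt, 16 passed higher and 5 lower (20.8% and 6.49%, against 13.4% and 15.9% of all genes), in 3bKI against 3aKO 20 and 11 (26% and 14.3%, against 16.5% and 17.7%), and in 3aKO against wt 0 and 0. Interferon ligands (5 of 9 measured) passed in none of the comparisons with wt. Among the 6 receptor genes, 2 fell in 1KI against wt, and these were Ifnar1 at −0.21 ± 0.05 and Ifngr1 at −0.37 ± 0.07 (SE, adjusted p = 0.0013 and 1.3e-04), which were named after their values were seen. Both calls were lost with the hybridization level as a block, at −0.20 and −0.17 (adjusted p = 0.20 and 0.46). For Ifnar1, the mean of its probe sets was 0.20 instead, so that its direction depended on the probe set.

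Of the 33 measured further interferon-stimulated genes, 1 passed higher and 10 lower in 1KI against wt, and 7 higher and 1 lower in 3bKI against wt. These are 3.03% and 30.3% in 1KI, against 10.2% and 17.5% of all genes, and 21.2% and 3.03% in 3bKI, against 13.4% and 15.9%. Ube2l6, the enzyme that hands ISG15 to its ligase, had the largest change of the pathway genes in 1KI, at −1.32 ± 0.15 (SE, adjusted p = 7.1e-08) in 1KI against wt and −1.13 ± 0.16 (SE, adjusted p = 1.4e-06) against 3aKO. It passed in all 37 alternative fits of 1KI against wt, while against 3aKO it was −1.06 with the hybridization level as a block and did not pass (adjusted p = 0.068). Gbp6, a further GTPase, was −0.59 ± 0.19 against wt and −0.85 ± 0.20 against 3aKO (SE, adjusted p = 0.018 and 0.00103), and with the block −0.55 and −0.81 (adjusted p = 0.40 and 0.32). Cxcl9, a chemokine induced by type II interferon, was −0.85 ± 0.33 (SE, adjusted p = 0.047) in 1KI against 3aKO and passed in 5 of 20 fits that left out 1 array, and with the block it was −0.57 (adjusted p = 0.74). Ly6e, a surface protein that blocks the fusion of coronaviruses, rose in 3bKI against wt by 0.71 ± 0.14 (SE, adjusted p = 2.5e-04). That call was lost with the block, at 0.61 (adjusted p = 0.086), and with RNA integrity as a covariate, at 0.35 (adjusted p = 0.55).

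Of 8 measured kinases and transcription factors, 4 passed higher and 1 lower in 1KI against wt, and 3 higher and 1 lower in 3bKI against wt. These are 62.5% and 50% of only 8 genes, against 27.6% and 29.2% of all genes. Irf5, a transcription factor of inflammatory genes, rose in 3bKI by 0.87 ± 0.10 (SE, adjusted p = 1.1e-07) against wt and 0.77 ± 0.10 against 3aKO, and passed in 31 of 32 alternative fits against wt, while against 3aKO it was 0.48 with the block and did not pass (adjusted p = 0.080). Irf3, the factor that starts interferon production, rose by 0.46 ± 0.06 (SE, adjusted p = 7.5e-07) in 1KI and by 0.36 ± 0.07 (SE, adjusted p = 1.3e-04) in 3bKI against wt, and was named after its values were seen. With the block it was 0.28 and 0.17 and passed in neither (adjusted p = 0.12 and 0.31). Of 6 inhibitors, Socs3, which blocks receptor kinases, was the 1 that passed in each knock-in against wt, at 0.58 ± 0.19 (SE, adjusted p = 0.018) in 1KI and 0.93 ± 0.26 (SE, adjusted p = 0.0069) in 3bKI. By the mean of its probe sets Socs3 was 0.35 in 1KI and 0.45 in 3bKI and did not pass (adjusted p = 0.24 and 0.26), nor did it with the block, at 0.58 and 0.91 (adjusted p = 0.36 and 0.19). Of 9 measured genes of class I molecules and peptide loading, 0 passed higher and 2 lower in 1KI against wt, and 1 and 2 in 3bKI against wt, or 22.2% and 33.3% in either direction, near the 27.6% and 29.2% of all genes.

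Members were also divided by whether their promoter held the ISRE letters, 16 with and 16 without. Of the 5 promoters printed, those of Stat2, which rose in both knock-ins, and of Ifit3 and Gbp2, which fell in 1KI, hold the letters, as does Ifit1, and that of Tap1, which rose in 3bKI, does not. In 1KI against wt, 6 members with and 4 without the letters passed lower, and 3 and 2 passed higher. In 1KI against 3aKO, 9 with and 7 without passed lower. In 3bKI against wt, 2 with and 9 without passed higher, at a median log2 change of 0.04 and 0.30, and in 3bKI against 3aKO 1 and 6 did. Among genes that are not members, 17.2% of 507 with the letters and 17.5% of 13828 without passed lower in 1KI against wt. In that comparison 9.86% and 10.4% passed higher, and in 3bKI against wt 12.6% and 13.8% did. Against 3aKO, 19.9% and 19.3% passed lower in 1KI, and 15.2% and 16.7% passed higher in 3bKI. These counts describe the members and were not tested.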

How the data were processed

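RNA of mouse livers was measured on expression arrays of 45101 probe sets; per the labels' protocols it was extracted with Trizol and labelled as biotin cRNA. The deposited values are log2 signals that the authors normalized, in 2 separate runs, by a method that the sources used here do not give. That the scale is log2 was judged from the range of the values. Of the probe sets, 34945 carried 1 gene symbol, and each of 18193 genes was represented by the one with the highest mean over the arrays of a normalization. This choice was open for 20 of the 44 members, and 43 had the same probe set in both normalizations. No filter on low signal was applied, so all 44 members were tested, 7 of them below the median gene signal of 6.91. Those 7 were Mx1, Ifit2, Oasl2, Cmpk2, Oas3, Oasl1 and Dhx58.

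Each normalization was fitted as a whole in limma (version 3.58.1, R 4.3.3) by lmFit and eBayes with no trend and no covariate. Benjamini-Hochberg adjustment ran over all 18193 genes of a comparison, and a gene passed at 0.05. Errors of log2 changes are limma's moderated standard errors. The number of arrays limits the precision. Fits were tested on simulated data with known changes. Control signals are means of 16 hybridization and 12 poly-A control probe sets, and array averages are log2 signals minus the wt mean.

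The genes described with their values are, per comparison, the members that passed with the largest changes, up to 8 a direction. Of the pathway genes up to 3 that passed with the largest changes were named, and others as stated. The 23 gene lists and the members were chosen with earlier results of these data known. Alternatives changed 1 choice at a time. They were a fit of both compared groups by themselves, a trend, a signal filter, other probe sets, further normalizations, array weights, blocks for the control level or replicate number, RNA integrity or a sex index (Xist minus Y-linked signal) as a covariate, wt replicates 1 and 2 left out or as the only controls, and other arrays left out.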

Additional observations from a re-analysis of the deposited data

Results flagged for a closer look

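In groups of 5 or 10 arrays, a member was listed where its highest or lowest array lay apart from the rest by Dixon's criterion for a single stray value at the 95% level. Of 132 groups (44 members in 3 genotypes), 18 were listed. The criterion lists about 1 in 20 where values are independent and normal, but the members share arrays and are not independent. The share of all genes that the same rule would list was not counted, so no excess among the members can be read from this. In 1KI, replicate 3 was the stray high array of 7 members, with log2 signals of 9.62 for Gbp2, 9.2 for Gbp3, 11.08 for Psmb8, 10.15 for Psmb9, 8.62 for Tap1, 8.97 for Tap2 and 11.21 for Tapbp. 1KI replicate 6, the array with the largest 3′ minus 5′ difference, was low for Oas3 (5.38), Bst2 (10.09), Parp9 (9.99) and Lgals3bp (8.76) and high for Ifi35 (11.50). 1KI replicate 1 was high for Oasl1 (7.45). In 3bKI, replicate 1 was high for Irf9 (8.62), Parp14 (8.85) and Rtp4 (10.13). In 3aKO, replicate 2 was high for Irf7 (8.09) and replicate 1 low for Mx1 (4.05). The cause of these values was not tested.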

How the results depend on the processing

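The number of members that passed stayed within 1.5 times the reported count in 162 of 171 repeats over the 5 comparisons. That number takes both directions together. It does not show a changed split, as in 3bKI against wt without 3bKI replicates 1 and 3. Many repeats left out only 1 array, and those of 3aKO against wt all gave 0, so the tally is no measure of how firm the directions are. With the hybridization level as a block the number of members that passed was 2 for 1KI set against wt and 1 against 3aKO, and for 3bKI 3 and 2. With wt replicates 1 and 2 as the only controls it was 2 in each knock-in. With RNA integrity as a covariate it was 2 and 0 for 3bKI set against wt and 3aKO. Whether replicate numbers pair the arrays was not settled. By a low cut on the correlation, 6 of 10 same-numbered wt and 3aKO arrays, 4 of 10 of wt and 1KI and 7 of 10 of 3aKO and 1KI deviated together. Of the pairs with 3bKI, 2 of 5 with wt and 1 of 5 with 3aKO did. The median correlation was highest for 3aKO and 1KI, at 0.24. In 3aKO and 1KI, replicates 1 to 5 had a high Xist signal and 6 to 10 a low one. The replicate block gave 0 members in 3aKO against wt, 16 and 25 for 1KI, and 9 and 15 for 3bKI. Leaving out 1 array gave 0 members in 3aKO against wt, 15 to 19 and 20 to 28 in 1KI, and 11 to 18 and 11 to 19 in 3bKI. Of 3476 repeats for single genes, 3000 kept direction and call, 10 turned sign and the others lost the call. Irf7 was −0.157 in 1KI against wt, with the block and with wt replicates 1 and 2, and −0.178 against 3aKO with the block. Ifi27 was −0.00801 in 3bKI against 3aKO with RNA integrity. By the mean of its probe sets, Trim21 was −0.118 in 1KI against wt, and Ifnar1 was 0.202 and 0.138 in 1KI and 0.0483 and 0.002 in 3bKI. Ifi35 was 0.117 in 3bKI against 3aKO without _x_at and _s_at probe sets. Where probe sets differ, the choice of probe set is the cause by construction; elsewhere the cause was not tested. Arrays left out together were chosen after seeing the data. Probe sets below the median signal limit what could be seen for 7 members.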
